A study of Mus musculus with 6 samples.

Results

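The nuclear-encoded subunits of the mitochondrial respiratory chain are described here across the passaging of mouse embryonic fibroblasts. They were chosen by gene symbol alone: names starting with Ndufa, Ndufb, Ndufc, Ndufs, Ndufv, Uqcr, Cox4, Cox5, Cox6, Cox7, Cox8 or Atp5, and Cyc1, Sdha, Sdhb, Sdhc and Sdhd, without pseudogenes and without the Ndufaf assembly factors. This rule found 86 of the 21988 genes in the expression table. Complex I had 38 of them, complex II 4, complex III 9, complex IV 18 and complex V 17. None lies on mitochondrial DNA, and those with a gene model are spread over 19 chromosomes.

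The respiratory chain sits in the inner mitochondrial membrane and passes electrons from NADH (complex I) and succinate (complex II) through ubiquinone to complex III, and through cytochrome c to complex IV, which reduces oxygen. Complexes I, III and IV pump protons, and complex V, the ATP synthase, uses the returning protons to make ATP. All but complex II also contain subunits encoded by mitochondrial DNA, so their assembly draws on both genomes.

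The fibroblasts were C57BL/6 primary cultures from embryos at day 13.5 of gestation, a strain label that all groups share, with no transgene or drug named. They were passaged serially and taken at population doubling (PD) 2, 8 or 14, where PD is the cumulative log2 ratio of cells counted to cells seeded. Each of the 3 groups had 2 RNA-seq libraries: replicate 1 was strand-specific after removal of ribosomal RNA (rRNA-depleted), and replicate 2 was enriched for poly(A). The title of the series places the comparison in cellular senescence and its secretory phenotype. The labels do not say whether libraries came from separate cultures, or how embryos were pooled, so p-values measure only the spread between these 6 libraries, which may be technical.

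Values are TPM, transcript abundances scaled for gene length and library size, which carry no read numbers, so the depth behind each value is unknown. The listed TPM summed to between 937217 and 950531 by rRNA depletion and to 1000000 in each poly(A) library, and 12554 to 12827 genes reached 1 TPM. The 15 fibroblast markers checked were all tested and summed to between 19882 and 38871 TPM per library, of which 4 rose from PD2 to PD14. Markers of skeletal and cardiac muscle summed to 54.8, 13.7 and 6.84 TPM over PD2, PD8 and PD14 by rRNA depletion and to 124, 35.0 and 14.0 TPM by poly(A) selection, with 4 of 6 tested markers lower at PD14. Macrophage and leukocyte markers summed to 64.4, 16.5 and 21.9 TPM, and to 89.5, 119 and 131 TPM, with 0 of 10 called by limma and 1 higher and 3 lower at an unadjusted p under 0.05. Endothelial markers, with Tie1 at 0 throughout, summed to 49.6, 28.0 and 30.2 TPM and to 110, 70.2 and 67.8 TPM, with 2 of 5 tested lower at PD14. Epithelial markers summed to 23.1, 11 and 6.19 TPM and to 40.6, 8.30 and 2.39 TPM, with 2 of 4 tested lower. Neural markers summed to 122, 154 and 183 TPM and to 222, 173 and 149 TPM, with 1 of 5 tested higher and 2 lower. Erythroid markers summed to at most 1.02 TPM. The part of these cell types in the members' values was not tested. In bulk RNA, fewer cells of a type and less RNA per cell cannot be told apart.

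Changes are differences of log2(TPM + 1) from a limma fit over all 6 libraries with library method as a block, given ± standard error (SE) with 2 libraries per group. A gene was called at a Benjamini-Hochberg adjusted p under 0.05 over the 13332 genes tested. Those genes had at least 1 TPM in at least 2 libraries. Where a fit leaves out a library, its group has 1 library, which is assumed to vary like those of the other groups. Of the 86 members, 83 were tested. Cox8b and Cox8c were at 0 in every library, and Cox7b2 had 0.155 TPM in the poly(A) library of PD8 and 0 elsewhere. Cox8b is the heart and skeletal muscle form of subunit 8 and Cox8c a testis form.

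The transcripts of the chain were abundant, and few differed between passages. The median of the mean TPM over tested members was 131, against 25.0 over all genes tested, and 76 members had at least 20 TPM in every library. From PD2 to PD14, 1 of 83 tested members was called, Cox6b2, which rose. Over all genes tested 11.2% were called, 6.41% higher and 4.77% lower. At an unadjusted limma p under 0.05 there were 5 members higher and 13 lower, a sum of 18 of 83 beside 32% of all genes (17.9% higher and 14.1% lower). The median fitted change of the members was -0.07, against 0.06 over all genes.

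For most members the fit bounded the change. Like the p-values, its intervals measure only the spread between these 6 libraries, which may be technical. The 95% confidence interval of the PD14 minus PD2 change lay within a 2-fold change for 74 of 83 members (89.2%), against 57.7% of all genes tested. Among genes with a mean of at least 30 TPM the same counts were 73 of 77 members and 73.2% of all such genes.

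**Figure D1:**
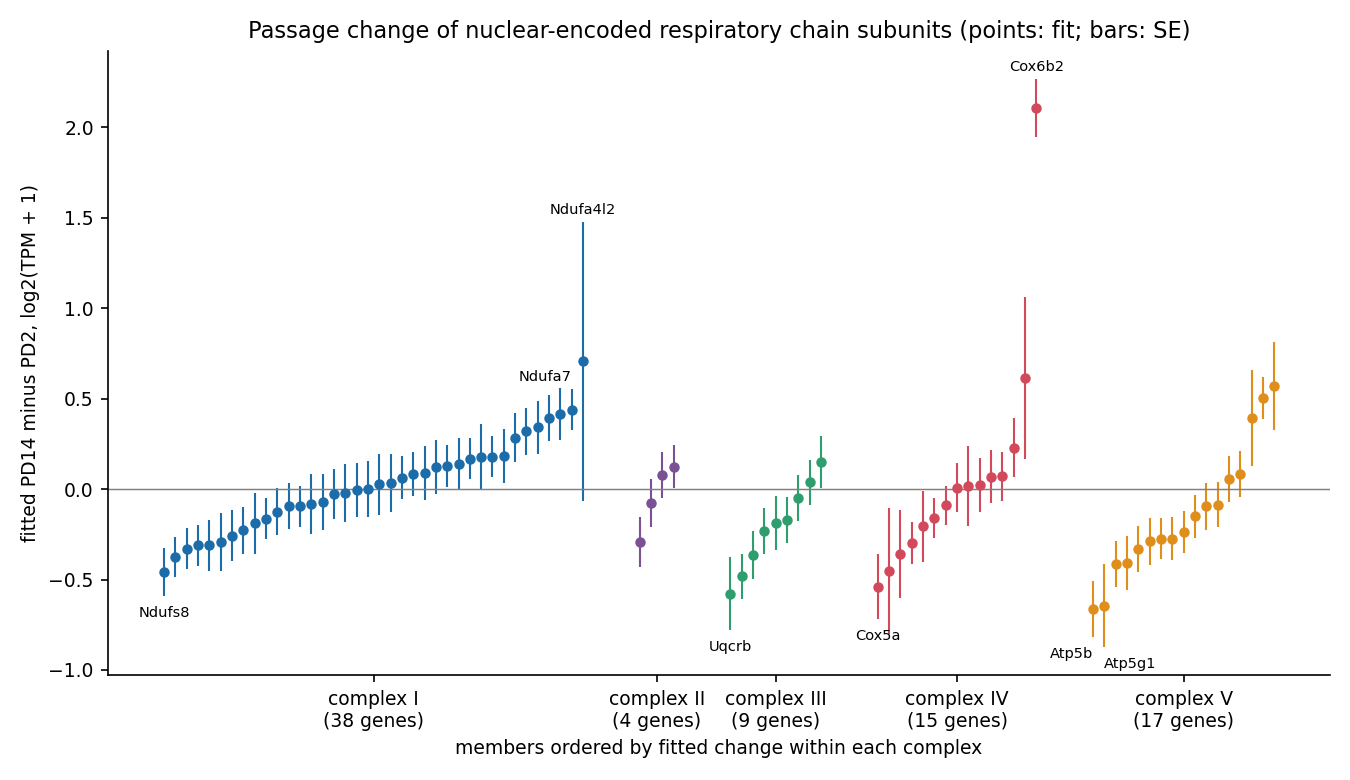
Fitted PD14 minus PD2 change of each tested subunit on the log2(TPM + 1) scale (vertical axis), ordered within complexes I to V (horizontal axis), with bars for the SE. Cox6b2 stands alone at 2.11, while the other members lie between -0.66 and 0.71.

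Cox6b2 encodes an isoform of cytochrome c oxidase subunit 6B that was first described in testis, and Cox6b1 the ubiquitous isoform of the same subunit, which lies at the contact between the monomers of complex IV. Their coding sequences are printed because reads of near-identical genes can be shared. Both come from the GENCODE M21 transcripts (Cox6b1-201 and Cox6b2-201), 5′ to 3′, and the capitals mark the longest stretch the pair has in common, 14 bases.
Cox6b1: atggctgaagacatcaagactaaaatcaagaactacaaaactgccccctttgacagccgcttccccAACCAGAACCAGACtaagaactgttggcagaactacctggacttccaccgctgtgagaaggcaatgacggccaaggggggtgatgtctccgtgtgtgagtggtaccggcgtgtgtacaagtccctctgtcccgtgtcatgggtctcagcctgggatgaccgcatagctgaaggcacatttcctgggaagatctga
Cox6b2: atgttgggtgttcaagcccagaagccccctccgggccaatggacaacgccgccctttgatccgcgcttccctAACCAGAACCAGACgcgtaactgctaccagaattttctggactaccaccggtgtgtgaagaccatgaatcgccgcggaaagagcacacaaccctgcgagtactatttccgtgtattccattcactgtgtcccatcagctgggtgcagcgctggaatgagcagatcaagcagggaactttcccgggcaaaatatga
The Cox6b1 sequence has 261 bases and the Cox6b2 sequence 267. Over 260 gap-free aligned columns, 158 bases were identical (60.8%). The longest stretch shared by the transcripts, untranslated parts included, was also 14 bases.

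By rRNA depletion Cox6b2 stood at 11.6 TPM at PD2, 50.8 at PD8 and 59.1 at PD14. By poly(A) selection it stood at 15.1, 49.7 and 61.8 TPM. The PD2 libraries were the lowest under both methods and did not overlap with the other groups, whereas the PD8 libraries lay close to those of PD14. The TPM ratio of PD14 to PD2 was 5.10 in the rRNA-depleted and 4.09 by poly(A) selection. The fitted change was 2.11 ± 0.16 (95% interval 1.71 to 2.51, adjusted p = 0.0163), which ranked 155 among all genes tested by size of rise.

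Cox6b1 was not called. It stood at 358, 361 and 324 TPM at PD2, PD8 and PD14 by rRNA depletion and at 342, 403 and 383 TPM by poly(A) selection, with groups that overlap. Its fitted PD14 minus PD2 change was 0.01 ± 0.13 (adjusted p = 0.974). Cox6b2 therefore made up 3.13%, 12.3% and 15.4% of the summed Cox6b TPM by rRNA depletion at PD2, PD8 and PD14, and 4.23%, 11% and 13.9% by poly(A) selection.

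The call of Cox6b2 did not hold under every choice. Its fitted change stayed between 1.84 and 2.28 in each alternative run, but its adjusted p was 0.191 without the block for library method and 0.0538 to 0.0769 when either PD14 or either PD8 library was left out.

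By GENCODE M21 on GRCm38 (the mm10 build), Cox6b2 is a protein-coding gene on the minus strand of chromosome 7, from 4751792 to 4753094, and its exons overlap no other gene. The neighbours on either side were not called with it. Kmt5c, a histone methyltransferase, changed by 0.27 ± 0.30 in the fit (adjusted p = 0.572), and Fam71e2 was at 0 in every library.

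The promoters of the Cox6b pair are shown because Cox6b2 was called and Cox6b1 was not. Each runs from 250 bases before to 50 bases after a RefSeq transcription start on GRCm38.p6, on the minus strand, at chr7:4753045-4753344 for Cox6b2 and chr7:30626065-30626364 for Cox6b1. Capitals mark the CCAAT box (CCAAT, or ATTGG on the other strand).
Cox6b2: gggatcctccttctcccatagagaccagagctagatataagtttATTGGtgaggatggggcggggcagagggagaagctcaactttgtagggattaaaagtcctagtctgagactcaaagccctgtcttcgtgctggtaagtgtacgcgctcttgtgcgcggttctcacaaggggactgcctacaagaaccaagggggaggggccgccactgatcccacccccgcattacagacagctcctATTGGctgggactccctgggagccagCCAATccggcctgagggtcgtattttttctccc
Cox6b1: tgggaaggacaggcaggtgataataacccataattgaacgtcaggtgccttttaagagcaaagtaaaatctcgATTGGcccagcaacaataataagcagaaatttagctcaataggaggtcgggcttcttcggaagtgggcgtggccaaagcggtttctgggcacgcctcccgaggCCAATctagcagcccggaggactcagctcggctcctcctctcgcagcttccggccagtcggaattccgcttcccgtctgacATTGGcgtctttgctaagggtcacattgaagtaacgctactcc
Both windows hold 3 CCAAT boxes and no exact match on either strand to the other motifs searched, which were a part of the NRF1 motif (GCGCNTGCG, shortened after a longer form had been searched) and the motifs of ETS factors (CCGGAAGT) and YY1 (AAGATGGC).

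Over the 70 members with a promoter entry there were 76 promoters. The NRF1 letters were found in 34.2% of these, against 6.31% of all 32851 promoters of the same length and 15.4% of those of genes with a mean of at least 30 TPM. The YY1 letters were found in 15.8%, against 2.75% and 5.13%. The ETS letters were found in 6.58%, against 3.89% and 9.11%, and the CCAAT box in 42.1%, against 37.4% and 36.7%. These are counts of letters and not of bound sites.

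**Figure D2:**
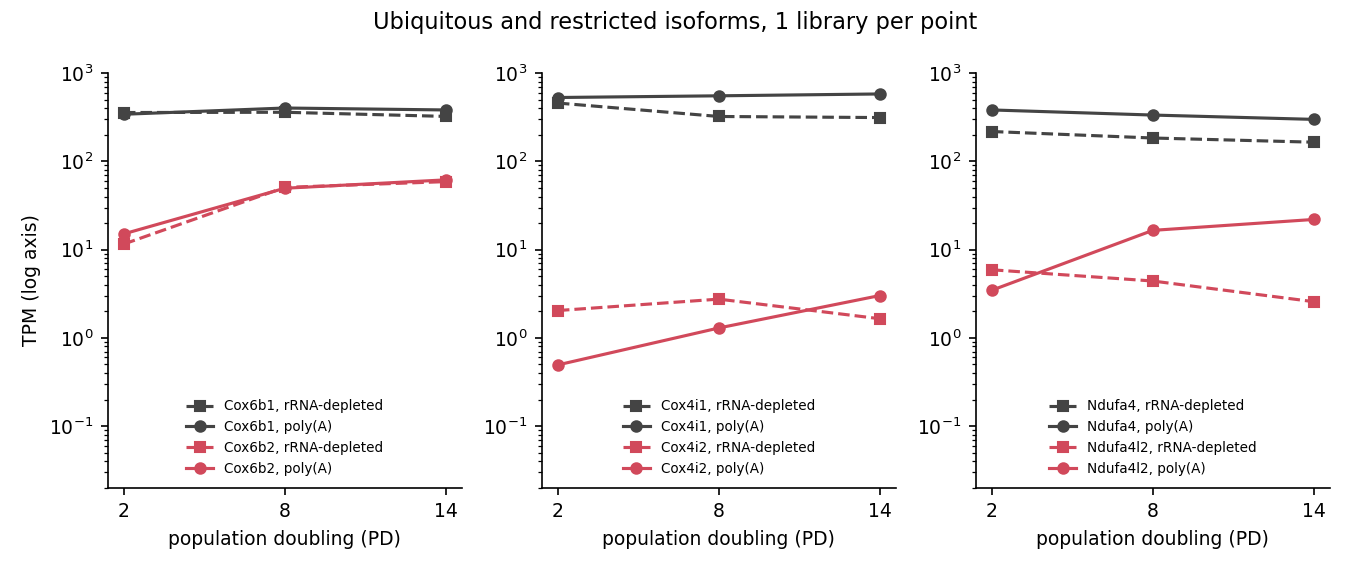
TPM on a log axis against population doubling for Cox6b1 and Cox6b2, Cox4i1 and Cox4i2, and Ndufa4 and Ndufa4l2, 1 library per point, squares for rRNA-depleted and circles for poly(A) libraries. Cox6b2 climbed from 11.6 and 15.1 TPM at PD2 to 59.1 and 61.8 TPM at PD14 under both methods, whereas Ndufa4l2 moved in opposite directions.

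Complex I, the NADH dehydrogenase, had 0 of its 38 tested members called between PD2 and PD14 by limma, with 3 higher and 4 lower at an unadjusted p under 0.05. Its 7 core subunits measured here hold the flavin, the iron-sulphur clusters or the quinone site, and their fitted changes ran from -0.46 to 0.06 with a median of -0.12. The 29 supernumerary subunits, which surround the core, had a median of 0.08. The smallest adjusted p of the complex was 0.069, for Ndufa7.

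Ndufs8, which binds iron-sulphur clusters next to the quinone site, stood at 75.6, 66.4 and 50.7 TPM over PD2, PD8 and PD14 by rRNA depletion and at 92.5, 78.0 and 72.3 TPM by poly(A) selection. Its values were in descending order under both methods, with a fitted change of -0.46 ± 0.13 (adjusted p = 0.0833). The same order under both methods was seen for Ndufv1, the flavin subunit, which ran from 53.7 to 42.4 TPM and from 60.3 to 55.2 TPM (-0.23 ± 0.13, adjusted p = 0.282).

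The other core subunits had smaller fits. Ndufs1, the large iron-sulphur subunit, changed by -0.12 ± 0.13, Ndufv2 by -0.09 ± 0.11, Ndufs7 by 0.03 ± 0.16 and Ndufs3 by 0.06 ± 0.12, with adjusted p from 0.55 to 0.901. Ndufa7, a supernumerary subunit, went the other way at 146, 188 and 189 TPM and at 217, 304 and 308 TPM (0.44 ± 0.11, adjusted p = 0.069).

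Ndufa4 and Ndufa4l2 carry complex I names, though Ndufa4 was later assigned to complex IV. Ndufa4 had the highest mean of the group, 264 TPM, with 218, 184 and 165 TPM in the rRNA-depleted and 383, 336 and 299.7 TPM by poly(A) selection (-0.38 ± 0.11, adjusted p = 0.0892). Ndufa4l2, a paralog induced by low oxygen, stood at 5.92, 4.41 and 2.58 TPM by rRNA depletion and at 3.47, 16.5 and 22 TPM by poly(A) selection. The methods thus disagreed in direction, and the fitted change was 0.71 ± 0.77 (adjusted p = 0.566). Without the rRNA-depleted library of PD2 it was 2.12 ± 0.40 (adjusted p = 0.0199), a value that sets PD14 against a single PD2 library and takes its spread from the other groups.

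The disagreement itself was tested as a difference in slope per PD between the methods, where 0 members and 0 genes were called by limma, 6 and 1695 of them at an unadjusted p under 0.05. Ndufa4l2 had the smallest adjusted p of the members, 0.172, for a slope difference of 0.28 ± 0.06 log2 units per PD. Its exons overlap those of Shmt2 on the opposite strand by 32 bases. The sum of the macrophage and leukocyte markers, given above, was likewise lower at PD14 than at PD2 by rRNA depletion and higher by poly(A) selection. Of these 10 markers taken singly, 6 had opposite signs in the methods, 3 were lower in both and 1 was higher in both. The part of these markers in the Ndufa4l2 values was not tested.

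Complex II, the succinate dehydrogenase, is the only complex encoded wholly in the nucleus. None of its 4 subunits was called by limma from PD2 to PD14, and none had an unadjusted p under 0.05. Sdha, the flavoprotein, stood at 162, 154 and 180.0 TPM by rRNA depletion and at 173, 183 and 174 TPM by poly(A) selection, with overlapping groups (0.08 ± 0.13). Sdhb, the iron-sulphur subunit, stood at 104, 88.6 and 75.0 TPM and at 166, 146 and 153 TPM (-0.29 ± 0.14, adjusted p = 0.211). The membrane anchors Sdhc and Sdhd changed by 0.12 ± 0.12 and -0.08 ± 0.13. All 4 intervals lay within a 2-fold change.

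Complex III, the cytochrome bc1 complex, had 0 of 9 members called by limma, with 3 lower at an unadjusted p under 0.05. All 9 were lower at PD14 than at PD2 by rRNA depletion, and 5 of 9 by poly(A) selection. Of all 13332 genes tested, 6111 and 6134 were lower. The 4 core and redox subunits all had negative fits.

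Uqcrc2, a core protein that faces the matrix, stood at 120.3, 87.5 and 78.7 TPM over PD2, PD8 and PD14 by rRNA depletion and at 180.5, 146 and 141 TPM by poly(A) selection. PD2 was highest under both methods and the fitted change was -0.48 ± 0.12 (adjusted p = 0.0658, and 0.0489 after median-of-ratios scaling). Cyc1, the cytochrome c1 that hands electrons to cytochrome c, stood at 86.0, 79.4 and 62.4 TPM and at 156, 128 and 129 TPM (-0.36 ± 0.13, adjusted p = 0.138). Uqcrfs1, the Rieske iron-sulphur protein, changed by -0.23 ± 0.13, and Uqcrc1, the other core protein, by -0.17 ± 0.13.

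Uqcrb, which lines the quinone pocket, had the most negative fit of the complex at -0.58 ± 0.20 (adjusted p = 0.123). It stood at 281, 254 and 240.3 TPM by rRNA depletion and at 326, 278 and 170.5 TPM by poly(A) selection, so that PD14 differed from PD2 by -0.23 and -0.93 on the log2 scale. Uqcrh, the hinge protein, had the highest mean of the complex, 271 TPM, and changed by 0.15 ± 0.14.

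Complex IV, cytochrome c oxidase, had 1 of 15 tested members called, Cox6b2. None of its other isoform sets had a called member. Cox4i1, the ubiquitous form of the largest nuclear subunit, stood at 459, 323 and 314 TPM by rRNA depletion and at 530.3, 554 and 582 TPM by poly(A) selection, opposite in direction (-0.21 ± 0.20, adjusted p = 0.513). Cox4i2, its form of lung and low oxygen, stood at 2.04, 2.75 and 1.65 TPM and at 0.495, 1.3 and 3.02 TPM (0.61 ± 0.45, adjusted p = 0.391). It made up at most 0.844% of the summed Cox4 TPM in any library.

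The heart and muscle forms were low. Cox6a2 stood at 2.98, 3.70 and 2.21 TPM by rRNA depletion and at 1.35, 1.49 and 0.772 TPM by poly(A) selection (-0.36 ± 0.24, adjusted p = 0.358). Cox7a1 stood at 2.14, 1.53 and 1.33 TPM and at 2.06, 3.82 and 1.20 TPM (-0.45 ± 0.35, adjusted p = 0.412). The muscle markers given above were lower at PD14, and their part in these values was not tested.

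The ubiquitous partners were far higher. Cox6a1 had the highest mean of the complex, 557 TPM, and stood at 381, 451 and 373 TPM and at 558, 798 and 782 TPM (0.23 ± 0.16). Cox7a2 changed by -0.09 ± 0.11, Cox7b by -0.30 ± 0.12 and Cox8a by 0.07 ± 0.15. Cox7a2l was classed as a factor for supercomplexes of complexes III and IV and not as a subunit. Whether it has that role in these cells was not tested. It changed by 0.02 ± 0.15 and held 57.1% to 67.9% of the summed Cox7a TPM.

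Cox5a, a ubiquitous subunit that carries no metal, stood at 196, 115 and 109 TPM by rRNA depletion and at 348, 286 and 296 TPM by poly(A) selection, with PD2 highest under both methods (-0.54 ± 0.18, adjusted p = 0.113, and 0.0322 against the rRNA-depleted library of PD2 alone). Cox5b, which binds zinc, stood at 189, 180.1 and 166 TPM and at 282, 274 and 257 TPM (-0.16 ± 0.11, adjusted p = 0.365).

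Complex V had the lowest median fitted change of the 5 complexes, -0.24. None of its 17 members was called by limma, with 1 higher and 5 lower at an unadjusted p under 0.05. The 17, chosen by symbol, include Atp5s and Atp5sl, which were classed as associated with the complex and not as subunits. These had means of 9.13 and 13.7 TPM and fits of 0.57 ± 0.24 and 0.39 ± 0.26. They make up 2 of the 3 members of complex V that were higher at PD14 than at PD2 under both methods. Atp5b, the catalytic beta subunit of the F1 head, was the most abundant member, with a mean of 950.2 TPM. It stood at 919, 627 and 509.7 TPM over PD2, PD8 and PD14 by rRNA depletion. By poly(A) selection it stood at 1442, 1166 and 1038 TPM. The order descended under both methods and the fitted change was -0.66 ± 0.16 (95% interval -1.06 to -0.27, adjusted p = 0.0564).

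Atp5b passed the threshold under 2 other scalings, with an adjusted p of 0.0475 after median-of-ratios scaling and 0.0468 after rescaling without genes of mitochondrial DNA. It was 0.0462 without the poly(A) library of PD2, where PD2 is 1 library and the spread comes from the other groups.

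The alpha subunit, Atp5a1, stood at 359, 318 and 309.5 TPM and at 520.4, 451 and 433 TPM (-0.24 ± 0.12, adjusted p = 0.224). The gamma subunit of the central stalk, Atp5c1, stood at 224, 247 and 213 TPM and at 309.9, 348 and 353 TPM (0.06 ± 0.13, adjusted p = 0.786). The small epsilon subunit, Atp5e, rose with 163, 245 and 223 TPM and 210.0, 309 and 309.6 TPM. PD2 was lowest under both methods, and its fit of 0.50 ± 0.11 had the smallest adjusted p after Cox6b2, 0.0526. Of the 5 subunits of the F1 head and central stalk, 3 had negative fits, Atp5a1 and Atp5b among them. The other 2, Atp5c1 and Atp5e, had positive fits.

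The c-ring, through which protons pass, is built from a single protein encoded by Atp5g1, Atp5g2 and Atp5g3. Atp5g1 stood at 98.7, 78.6 and 45.6 TPM by rRNA depletion and at 161, 163 and 141 TPM by poly(A) selection, so that PD14 differed from PD2 by -1.10 and -0.19 (fit -0.64 ± 0.23, adjusted p = 0.127, and 0.0481 against the rRNA-depleted library of PD2 alone). Its share of the summed Atp5g TPM was 17.0%, 14.9% and 10.3% by rRNA depletion and 17.8%, 18.3% and 17.3% by poly(A) selection. Atp5g2 changed by -0.28 ± 0.11 and Atp5g3 by -0.15 ± 0.12. All 4 peripheral stalk subunits had negative fits, from -0.41 to -0.10.

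Summed over genes, the complexes differed in how far PD14 lay from PD2, and the methods did not give the same answer. The sum of complex V at PD14 was 0.785 of that at PD2 by rRNA depletion and 0.890 by poly(A) selection. For complex III the ratios were 0.840 and 0.939, and for complex II 0.976 and 0.968. Complex I had 0.960 and 1.08, and complex IV 0.858 and 1.15, so these lay on opposite sides of 1. All members together went from 13081 to 11314 TPM (0.865) by rRNA depletion and from 16639 to 16842 TPM (1.01) by poly(A) selection. After median-of-ratios scaling both sums were lower at PD14, with ratios of 0.821 and 0.945, while complex I (0.912 and 1.01) and complex IV (0.815 and 1.07) still lay on opposite sides of 1. With 1 library per group and method these ratios have no replicate check.

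**Figure D3:**
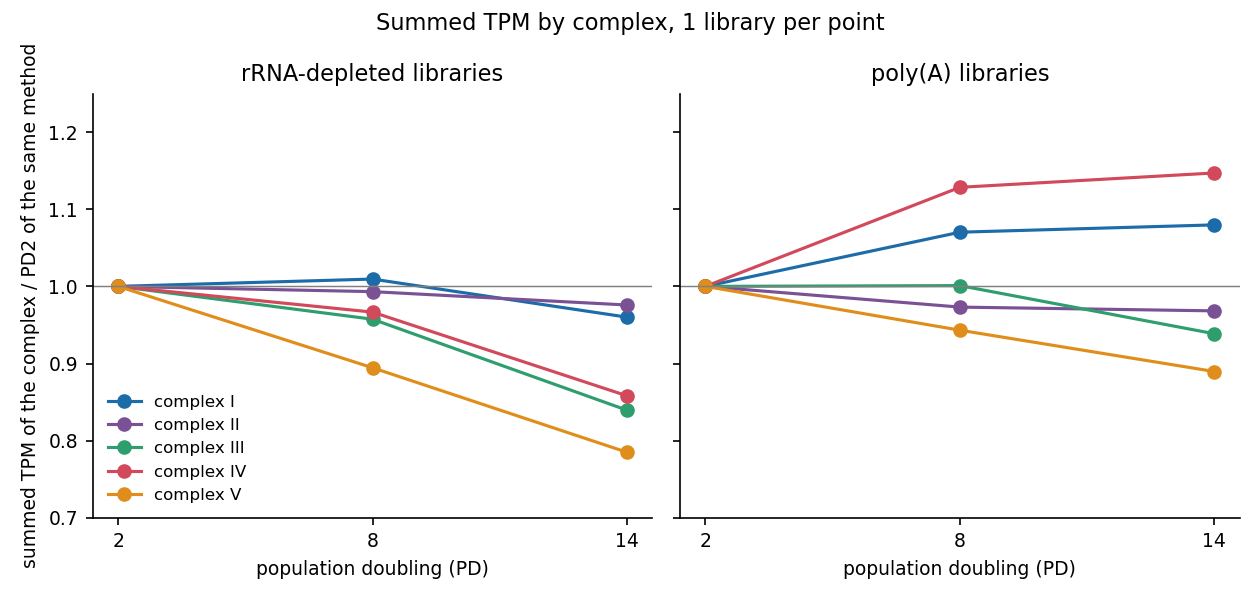
Summed TPM of each complex divided by the PD2 sum of the same method (vertical axis) against population doubling (horizontal axis), 1 library per point. Complex V is lowest at PD14 in both panels, at 0.785 and 0.890, while complexes I and IV end below 1 in the rRNA-depleted and above 1 in the poly(A) libraries.

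Gene by gene, 65 of 83 members were lower at PD14 than at PD2 by rRNA depletion and 38 of 83 by poly(A) selection. Over all 13332 genes tested, 6111 and 6134 were lower. The members' median change was -0.20 by rRNA depletion and 0.03 by poly(A) selection, against 0.06 under each method over all genes. Both methods gave a lower value for 36 members and a higher value for 16, and 31 had opposite signs. Of all genes tested, 30.8% were lower in both methods, 38.8% higher in both and 30.1% opposite. Of the 31, 29 were lower in the rRNA-depleted and higher by poly(A) selection, against 2001 of 4018 over all genes tested.

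By complex, the members lower in both methods were 11 of 17 in complex V, 5 of 9 in complex III, 6 of 15 in complex IV, 12 of 38 in complex I and 2 of 4 in complex II. After median-of-ratios scaling 39 members were lower in both, 12 higher in both and 32 opposite, and the poly(A) median became -0.07. The median over all genes shifted from 0.06 to -0.02 with that scaling. The fitted medians of complex III (-0.19) and complex V (-0.24) were negative under each of the 5 scalings, deposited values included. Those of complexes I (0.01), II (0.001) and IV (0.01) had no stable sign. They were -0.072, -0.085 and -0.078 under median-of-ratios scaling and -0.020, -0.033 and -0.026 after rescaling without genes of mitochondrial DNA. Under quantile normalization they were -0.059, -0.028 and 0.003, and they stayed above 0 after rescaling to equal sums.

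**Figure D4:**
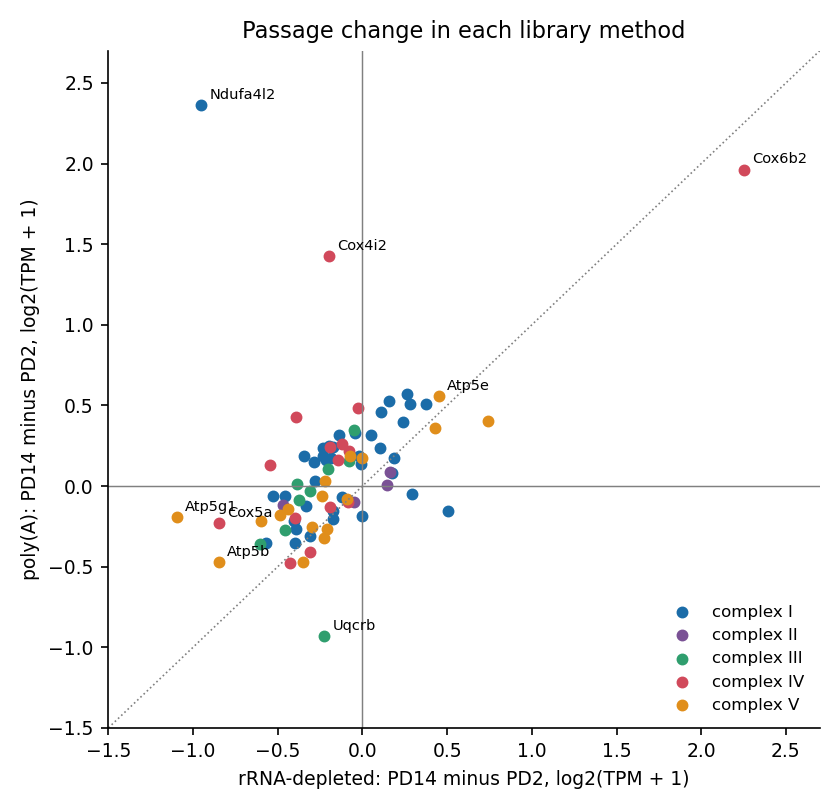
PD14 minus PD2 on the log2(TPM + 1) scale in the rRNA-depleted libraries (horizontal axis) against the poly(A) libraries (vertical axis), 1 point per tested subunit, coloured by complex, with the dotted line at equality. Cox6b2 lies at the upper right with 2.25 and 1.96, Ndufa4l2 at the upper left with -0.95 and 2.36, and most others are left of 0.

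The steps of the time course were tested separately. From PD2 to PD8, 0 of 83 members were called by limma beside 0.0225% of all genes, with 7 members higher and 4 lower at an unadjusted p under 0.05 and 2713 genes in all. Cox6b2 came nearest with 1.85 ± 0.16 (adjusted p = 0.0529), and its adjusted p was 0.0487 with a pseudocount of 0.1 and 0.0113 and 0.0108 without the rRNA-depleted and the poly(A) library of PD2, each time with 1 library left at PD2. Without the former, Ndufa4l2 was also called in this step (2.22 ± 0.40, adjusted p = 0.0348). From PD8 to PD14, 0 members were called among 0 genes (0%), with 1 member, Atp5k, at an unadjusted p under 0.05 and 746 genes. Cox6b2 changed by 0.26 ± 0.16 in that step (adjusted p = 0.928). When the change after PD8 was set against the change before it, limma called 0 members and 0 genes (0%), with 3 members and 566 genes at an unadjusted p under 0.05. Cox6b2 had a difference of -1.59 ± 0.27 between the steps, with an unadjusted p of 0.0019 and an adjusted p of 0.9996.

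More members differed between the poly(A) and the rRNA-depleted libraries than between passages. Each method is also 1 replicate number, so that a difference of method and one of culture or batch cannot be told apart. Poly(A) libraries gave higher values for 41 of 83 members and lower values for 3 at an adjusted p under 0.05, beside 37.3% of all genes in either direction, 16.4% higher and 20.9% lower. Among genes with a mean of at least 30 TPM, 24.6% were higher, and 53.2% of such members. All 3 poly(A) libraries lay above all 3 rRNA-depleted libraries for 48 members, against 20.1% of all genes, and below them for 4 members, against 24.7%. The median difference was 0.39 over members and -0.04 over all genes. The count of members called in either direction, 44, was 4 or 5 without a PD8 library and 22 without a PD14 library.

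Under the other scalings, between 35 and 43 members were higher and 3 or 4 lower. The split of all calls depended more on scaling, with 44.0% of the called genes higher in poly(A) as deposited, 33.7% after rescaling without genes of mitochondrial DNA and 54.2% after quantile normalization, which moved the median over all genes to 0.06. The members' median stayed at 0.28 or above in each.

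Complexes II and III had the largest shares, with 3 of 4 and 7 of 9 members higher in poly(A). Complex V had 11 of 17, complex IV 7 of 15 and complex I 13 of 38. The largest called differences were those of Cox8a, a ubiquitous membrane subunit of complex IV (1.20 ± 0.12), Cox5a (1.19 ± 0.15), Atp5g1 (1.12 ± 0.19) and Uqcrq, a small subunit of complex III (0.997 ± 0.12). Cox8a stood at 349, 329.6 and 320.2 TPM by rRNA depletion and at 699.8, 768 and 838 TPM by poly(A) selection, with no overlap.

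The 3 members lower in poly(A) were Ndufa3 (-0.96 ± 0.11), Cox6a2 (-0.84 ± 0.20) and Atp5j (-0.41 ± 0.10). Each overlaps a gene on the opposite strand in exons: Ndufa3 overlaps Tfpt by 4 bases, Cox6a2 Itgad by 70 and Atp5j Gabpa by 397. In all, 29 members overlap another gene in exons, 26 of them on the opposite strand. The sources used here do not say whether counting used strand, so reads of such pairs may not be told apart, and the part of the overlaps in the method difference was not tested.

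**Figure D5:**
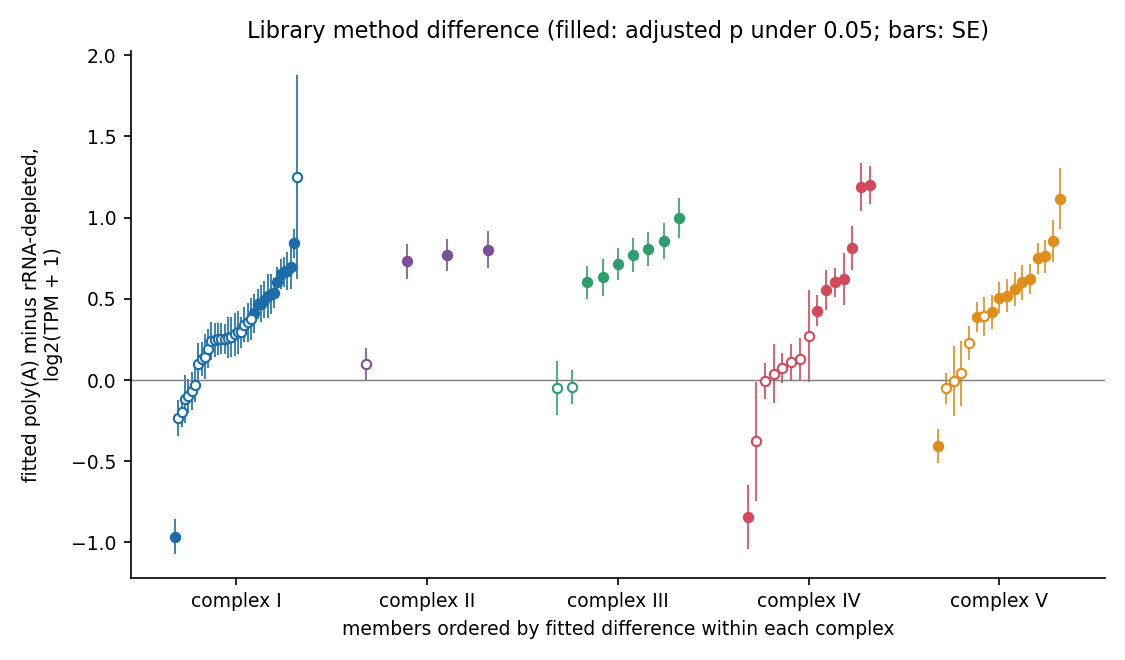
Fitted poly(A) minus rRNA-depleted difference of each tested subunit on the log2(TPM + 1) scale (vertical axis), ordered within complexes I to V (horizontal axis), with bars for the SE and filled points for an adjusted p under 0.05. Most points lie above 0, and 3 filled points lie below it, at -0.96, -0.84 and -0.41.

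The subunits of the same complexes that are encoded by mitochondrial DNA were read beside the nuclear ones. Their 13 genes summed to 63953, 52952 and 56218 TPM over PD2, PD8 and PD14 by rRNA depletion and to 67390, 43511 and 30421 TPM by poly(A) selection. The PD14 to PD2 ratios were 0.879 and 0.451. Only mt-Atp6, a membrane subunit of complex V, was called (-3.31 ± 0.73, adjusted p = 0.0497), at 6592, 4408 and 1223 TPM and at 6694, 471 and 367 TPM. It overlaps mt-Atp8, which was not called by limma (-1.95 ± 0.82, adjusted p = 0.175). The TPM of mt-Atp8 were 6335, 4920 and 5434 by rRNA depletion and 7408, 851 and 576 by poly(A) selection. Because of the overlap, the division of reads between the pair is uncertain.

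Genes that assemble or feed the chain were counted from lists of 8 kinds, the mitochondrial subunits included. By limma, 0 of 17 complex I assembly factors, 0 of 25 complex IV assembly factors and 0 of 5 genes for assembly or inhibition of the ATP synthase were called from PD2 to PD14. At an unadjusted p under 0.05 there were 2, 6 and 1 of them. Of 10 assembly factors of complexes II and III, Sdhaf4, which helps assemble Sdha, rose by 0.90 ± 0.17. Of 21 regulators of mitochondrial gene expression, Esrra, a nuclear receptor that activates respiratory genes, rose by 0.77 ± 0.16.

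Of 19 genes for electron carriers, 1 rose and 2 fell. Cycs, the somatic cytochrome c, stood at 55.3, 37.1 and 27.2 TPM by rRNA depletion and at 84.1, 57.9 and 51.4 TPM by poly(A) selection. The groups PD2 and PD14 did not overlap, and the change was -0.85 ± 0.14 (adjusted p = 0.0317). Pdss1, which starts the side chain of ubiquinone, changed by -1.17 ± 0.23, and Coq8a, a kinase-like protein of ubiquinone synthesis, rose by 1.35 ± 0.29.

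Of 24 genes of the TCA cycle and pyruvate entry, 3 rose and 2 fell. Citrate synthase (Cs) changed by -0.66 ± 0.14, and Idh3a, the catalytic subunit of NAD-dependent isocitrate dehydrogenase, by -0.77 ± 0.13. The pyruvate dehydrogenase kinases Pdk2 and Pdk4, which switch off pyruvate entry, rose by 1.29 ± 0.17 and 1.57 ± 0.26, and the pyruvate carrier gene Mpc2 rose by 0.55 ± 0.12. The calls in these lists had adjusted p from 0.0221 to 0.0497, beside 6.41% and 4.77% of all genes called higher and lower.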

How the data were processed

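The authors deposited one table of TPM per gene symbol for the 6 libraries, and TPM carry no read numbers. Per the submitters' processing notes the build was mm10 and the tools were StringTie 1.3.1c, HISAT2 2.0.5, cutadapt 1.14 and bcl2fastq. Their roles, the annotation and any use of strand are not given in the sources used here.

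The members and all gene lists were chosen with earlier results of these data known. Groups came from the sample titles. In R 4.3.3, limma 3.58.1 was fitted to log2(TPM + 1), which understates changes of low genes, for 13332 genes that reached 1 TPM in 2 or more libraries. The model had the 3 groups, library method as an additive block and a mean-variance trend, with 2 residual degrees of freedom and a prior of 3.22. Tests were two-sided with Benjamini-Hochberg adjustment over all genes tested. The slope test used PD as a number, method and their product. The code was tested on simulated data.

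Per the labels, the replicate number marks the library method. Same-numbered libraries deviated together from their group means (correlations 0.752, 0.664 and 0.854 across genes), so the number was kept as a block.

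The text names called members, per complex the member of highest mean TPM and the 2 with the largest absolute PD14 minus PD2 fit, core subunits, isoform sets and called genes of the companion lists. A member that this rule would name is not reported here. Members named for other values (Ndufa7, Ndufa3, Uqcrq, Atp5e, Atp5j, Atp5k) were chosen after these were seen. Atp5s and Atp5sl were named for their class. Positions and exon overlaps came from GENCODE M21, where 84 members matched by symbol, 1 under another name and 1 not at all. Promoters were searched on both strands for exact matches. The NRF1 letters were shortened by 1 base after a longer form had been searched and its values seen. The longer form gave lower shares in members and in all promoters. Alternatives were the pseudocount, the filter, scaling, trend, block, membership and leaving out each library.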

Additional observations from a re-analysis of the deposited data

How the results depend on the processing

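From PD2 to PD14, 1 member was called. It became 3 with median-of-ratios scaling (Cox6b2, Atp5b, Uqcrc2), 2 with rescaling without genes of mitochondrial DNA, and 0 with no replicate block, where 0 of all genes were called and Cox6b2 had an adjusted p of 0.191. Without the method block, library method enters the spread. The block, which comes from the pairing by library method, is part of every other result. Leaving out 1 library gave 0 to 4 members. Without either PD14 or either PD8 library there were 0, and then only 0 to 25 of all genes were called. Without the rRNA-depleted library of PD2 there were 2 (Cox6b2, Ndufa4l2), and without its poly(A) library 4 (Cox6b2 higher, Atp5b, Atp5g1 and Cox5a lower). The members' median was 0.06 without the rRNA-depleted library of PD2 and 0.01 without that of PD14, against -0.07 with all.

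From PD2 to PD8 the count of 0 became 1 with a pseudocount of 0.1, and 0 to 2 when 1 library was left out. The 44 members that differed by method became 4 to 47 when 1 library was left out, 4 or 5 of these without a PD8 library and 22 without a PD14 library. With median-of-ratios scaling, the median of complex II was -0.085 and that of complex V -0.32. Without 1 library the latter ran from -0.24 to -0.15. Except where a cause is given, the cause was not tested. Over all genes, 1490 were called from PD2 to PD14, against 404 with no filter, 938 with no trend and 1804 without the rRNA-depleted library of PD2. The share of these calls that were higher was 57.3%, and 46.9% after quantile normalization. No called value reversed its direction. Of the main summary values, 19 moved under some alternative and 122 stayed the same within their spread. Depth is unknown, and 2 libraries per group limit the precision.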
